A study of Mus musculus with 6 samples.

Results

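The genes described here encode the enzymes that write, erase and read marks on chromatin, with the SMARC-named proteins of nucleosome remodelling. Their RNA was measured in mouse bone marrow monocytes exposed to granulocyte-macrophage colony-stimulating factor (GM-CSF). They were picked by gene symbol alone. A row of the count table was a member if its symbol began with Kdm1 to Kdm8, Kmt2, Kmt5, Setd1 to Setd8, Dnmt1, Dnmt3 or Smarca to Smarce, or was Hdac with a number, Sirt1 to Sirt7, Brd1 to Brd9, Tet1 to Tet3, Ezh1 or Ezh2. The rule found 81 of 24421 gene rows. Classed by symbol, they were 18 lysine demethylases, 16 lysine methyltransferases, 11 histone deacetylases and 7 sirtuins. The rest were 7 BRD-named bromodomain proteins, 14 SMARC rows and 8 rows for DNA methyltransferases and TET enzymes. Of the 81, 2 are no protein-coding genes: Smarca5-ps is a pseudogene copy of Smarca5, and Dnmt3aos is an antisense transcript of Dnmt3a.

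Messenger RNA was sequenced in 6 libraries of monocytes, phagocytes made in the marrow, that had been sorted from the marrow of B6 mice. GM-CSF, a growth factor and activator of myeloid cells, was given at 5 ng, with no volume stated, for 3 h before the 3 GM-CSF libraries were made. The other 3 libraries were controls without the cytokine. The controls are called freshly isolated in one label, whereas another describes medium with or without GM-CSF, so time in culture may differ between the groups, and GM-CSF and culture then cannot be told apart. The age and sex of the mice, pooling of animals and the sort markers were not given in the sources used here. Whether the replicates are separate mice, separate cultures or repeats of 1 preparation is not stated. The p-values therefore reflect the spread among these 6 libraries, which may be technical alone.

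DNA in the nucleus is wound around histone proteins, and chemical groups on the histone tails and on the DNA itself help to set which genes can be read. Methyltransferases and acetyltransferases add such groups, and demethylases, deacetylases and TET enzymes take them off. Bromodomain proteins bind acetylated histones, and many SMARC proteins belong to complexes that use ATP to move nucleosomes. In myeloid cells Kdm6b is known as an enzyme induced by inflammatory signals, and TET2 loss is a common event in clonal blood disorders of the myeloid lineage.

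The GM-CSF libraries held 16643228 to 21468929 reads in genes and the control libraries 20782467 to 25232956. Levels are given as CPM, the reads of a gene scaled to the total of reads in genes of its library, and a count of 3 reads equals 0.119 to 0.180 CPM. GM-CSF replicate 3 stood apart: across genes, which are not independent replicates, the correlation of its log2 CPM was 0.980 with GM-CSF replicate 1 and 0.983 with GM-CSF replicate 2, against 0.990 for GM-CSF replicates 1 and 2 and 0.992 for each pair of control libraries. Values without it are therefore given wherever they change a call. All 8 monocyte markers had reads. Their summed level, mostly Lyz2, was 27591 to 30051 CPM in GM-CSF libraries and 59112 to 68083 CPM in control libraries. The 8 genes disagreed: 2 were called higher and 5 lower, with log2 fold changes from -3.49 to 4.43. Among genes listed as markers of other cells, neutrophil genes summed to 16288 to 20413 CPM in GM-CSF libraries and 27724 to 38302 CPM in control libraries. S100a8 was the top of this sum, and of its 11 genes 1 was called higher and 6 lower. B cell genes summed to 34.97 to 43.4 CPM in GM-CSF libraries and 63.8 to 72.6 CPM in control libraries (8 genes). Dendritic cell genes summed to 9.92 to 13.3 CPM in GM-CSF libraries and 15.8 to 19.8 CPM in control libraries (6 genes), but these 6 disagreed: Flt3, the top of the sum, and Siglech were lower, Ccr7 and Zbtb46 were higher, and their median log2 fold change was 0.33. Erythroid genes summed to 0.326 to 0.834 CPM in GM-CSF libraries and 2.07 to 2.29 CPM in control libraries (7 genes), with Hba-a1, Hba-a2, Hbb-bs and Hbb-bt at 0. These 5 sums did not overlap between groups and reached the smallest p that an exact two-sided permutation test of 3 against 3 libraries can give, 0.1. T and NK cell genes (9 genes, 169 to 195 CPM in GM-CSF libraries and 176 to 234 CPM in control libraries) and cell cycle genes (15 genes, 3142 to 3340 CPM in GM-CSF libraries and 3242 to 3704 CPM in control libraries) overlapped between groups. The part of these cell markers in the results below was not tested. In bulk RNA, fewer cells of a type and less RNA per cell cannot be told apart.

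Of the 81 members, 76 had enough reads to be tested. With edgeR's quasi-likelihood test and Benjamini-Hochberg adjustment over all 11731 genes tested, 25 members were higher and 17 lower in GM-CSF libraries at an adjusted p under 0.05, and 34 did not pass. The share called among members was 55.3%, against a background of 64.0% of all genes tested (32.8% higher and 31.2% lower). The share of higher calls, 32.9% of members, was close to the background, and 22.4% of members were lower. The median log2 fold change (GM-CSF over control, so that a positive value means higher with GM-CSF) was 0.08 for the members and 0.01 for all genes tested. Its median size without sign was 0.37 for the members and 0.54 for all genes tested. Changes of at least 2-fold were few: 4 members rose that far (Dnmt3l, Kdm6b, Tet2 and Sirt1; background 11.9%) and 2 fell that far (Tet1 and Kdm1b; background 12.6%). Of these, Tet1 passed the read filter through the control libraries alone. No overlap between the 3 GM-CSF and the 3 control libraries was found for 28 tested members that were higher and 23 that were lower, against a background of 69.5% of all genes tested (34.9% higher and 34.7% lower). All 42 members that passed were among these 51. The split of calls moved with the scaling of the libraries. With upper quartile scaling, 22 members were higher and 26 lower, so that 45.8% of the called members were higher, against 59.5% with TMM scaling. Upper quartile scaling moved the median log2 fold change of all genes by -0.12, so this move is not particular to the members. Without GM-CSF replicate 3, 26 members were higher and 18 lower (background 33.5% and 31.7% of 11869 genes).

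**Figure D1:**
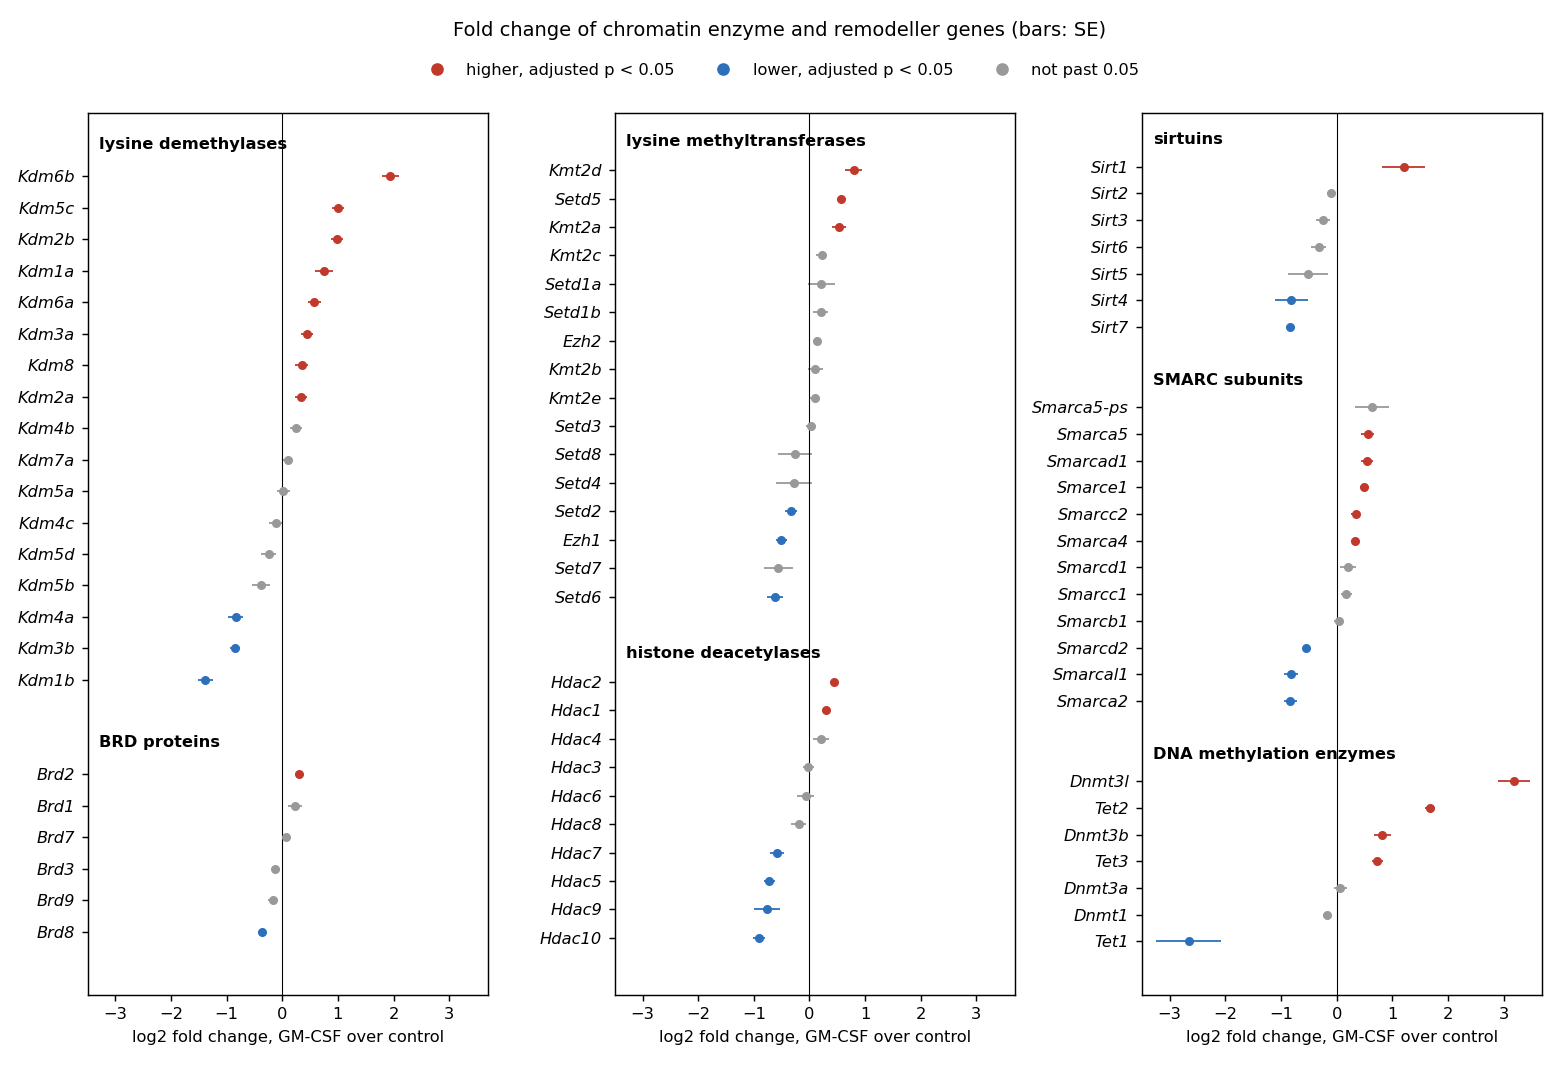
Log2 fold change, GM-CSF over control, of 75 of the 76 tested members by class, with bars for the SE; red members were higher and blue members lower at an adjusted p under 0.05, and grey members did not pass. Dnmt3l (3.19), Kdm6b (1.94) and Tet2 (1.67) lie farthest to the right, Tet1 (-2.66) and Kdm1b (-1.38) farthest to the left, and most other members lie within 1 unit of 0.

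The enzymes of DNA methylation had the highest median log2 fold change of the 7 classes, 0.73. Of the 7 tested, 4 were higher and 1 was lower (71.4% called; background 64.0%). Methylation of cytosine is laid down by DNMT3 proteins, copied after replication by DNMT1 and oxidised by TET enzymes as a first step of removal. Tet2, the main TET gene of blood cells, had 99.04, 109.9 and 94.2 CPM in GM-CSF replicates 1, 2 and 3, against 29.05, 33.6 and 32.96 CPM in control replicates 1, 2 and 3. The lowest GM-CSF library thus lay far above the highest control library, and Tet2 rose 3.18-fold (log2 fold change 1.67 ± 0.09, adjusted p = 6.29e-08; SE, n = 3 per group; edgeR). Tet3, its relative, was also higher in all 3 GM-CSF libraries, at 54.5, 62.2 and 68.6 CPM, against 39.2, 34.9 and 38.01 CPM in controls (log2 fold change 0.73 ± 0.10, adjusted p = 8.54e-05; edgeR). Tet1 moved the other way and was scarce throughout, with 4, 7 and 1 reads in the GM-CSF libraries and 23, 36 and 41 reads in the control libraries (log2 fold change -2.66 ± 0.59, adjusted p = 0.00217; edgeR). Tet1 met the minimum count of the read filter, 10, in the control libraries alone. It was thus tested only through the group where it was high, and its p carries that selection. With 12 reads over the GM-CSF group, its size is poorly set: leaving out GM-CSF replicate 3 gave -2.10, and leaving out GM-CSF replicate 2 gave -3.37.

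Dnmt3l, a partner of the DNMT3 enzymes without catalytic activity of its own, had the largest rise of all members. Its level was 7.21, 6.07 and 8.34 CPM in the GM-CSF libraries, against 0.917, 0.515 and 0.962 CPM in the control libraries (log2 fold change 3.19 ± 0.28, adjusted p = 2.66e-06; edgeR). The rise was present in every GM-CSF library, although even there Dnmt3l reached only 2.41 CPM per kb of exon, against 5.99 for Tet2. Dnmt3b, a de novo methyltransferase, averaged 14.2 ± 0.258 CPM in GM-CSF libraries and 8.06 ± 1.29 CPM in control libraries (SD, n = 3 each) and rose by a smaller amount (log2 fold change 0.82 ± 0.16, adjusted p = 0.000774; edgeR). Dnmt3a, the other de novo enzyme, had 20.6, 25.2 and 23.9 CPM in GM-CSF libraries, against 22.3, 21.4 and 23.3 CPM in control libraries. These ranges overlapped and Dnmt3a did not pass (log2 fold change 0.07 ± 0.11, adjusted p = 0.621; edgeR). Dnmt1, the maintenance enzyme, was by far the most abundant of the class per kb of exon, with 27.95 CPM per kb in GM-CSF libraries and 31.7 CPM per kb in control libraries. Its values, 186, 219 and 213 CPM in GM-CSF libraries and 220.1, 240.4 and 240.5 CPM in control libraries, did not overlap, but it missed the threshold (log2 fold change -0.17 ± 0.08, adjusted p = 0.0679; edgeR).

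The start regions of Tet2 and Dnmt3l are shown because these were the largest rises among members with a promoter sequence at hand. Each is the 300 bases from 250 before to 50 after a RefSeq transcript start on GRCm38.p6, read 5′ to 3′ on the gene's strand. The Tet2 window (chr3:133544341-133544640, minus strand) is 81.3% G and C. The Dnmt3l window (chr10:78049592-78049891, plus strand), which belongs to the second of 3 annotated starts along the gene, is 62.7% G and C. Capitals mark the motif TTCNNNGAA, the form of site that STAT factors downstream of the GM-CSF receptor are known to bind. It lies 123 bases before this Dnmt3l start and is not among the letters of the Tet2 window or of the windows at the other two Dnmt3l starts.
Tet2: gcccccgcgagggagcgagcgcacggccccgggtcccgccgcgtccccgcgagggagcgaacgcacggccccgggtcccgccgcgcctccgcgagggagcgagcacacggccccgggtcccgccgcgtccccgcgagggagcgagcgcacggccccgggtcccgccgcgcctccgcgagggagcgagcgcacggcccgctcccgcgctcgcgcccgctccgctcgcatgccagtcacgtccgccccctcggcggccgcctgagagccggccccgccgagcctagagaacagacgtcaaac
Dnmt3l: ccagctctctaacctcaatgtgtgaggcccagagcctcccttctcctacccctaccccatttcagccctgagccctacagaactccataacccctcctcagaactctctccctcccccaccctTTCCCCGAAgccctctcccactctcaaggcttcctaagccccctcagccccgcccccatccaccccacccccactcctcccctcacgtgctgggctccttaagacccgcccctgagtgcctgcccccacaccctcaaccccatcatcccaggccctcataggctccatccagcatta

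**Figure D2:**
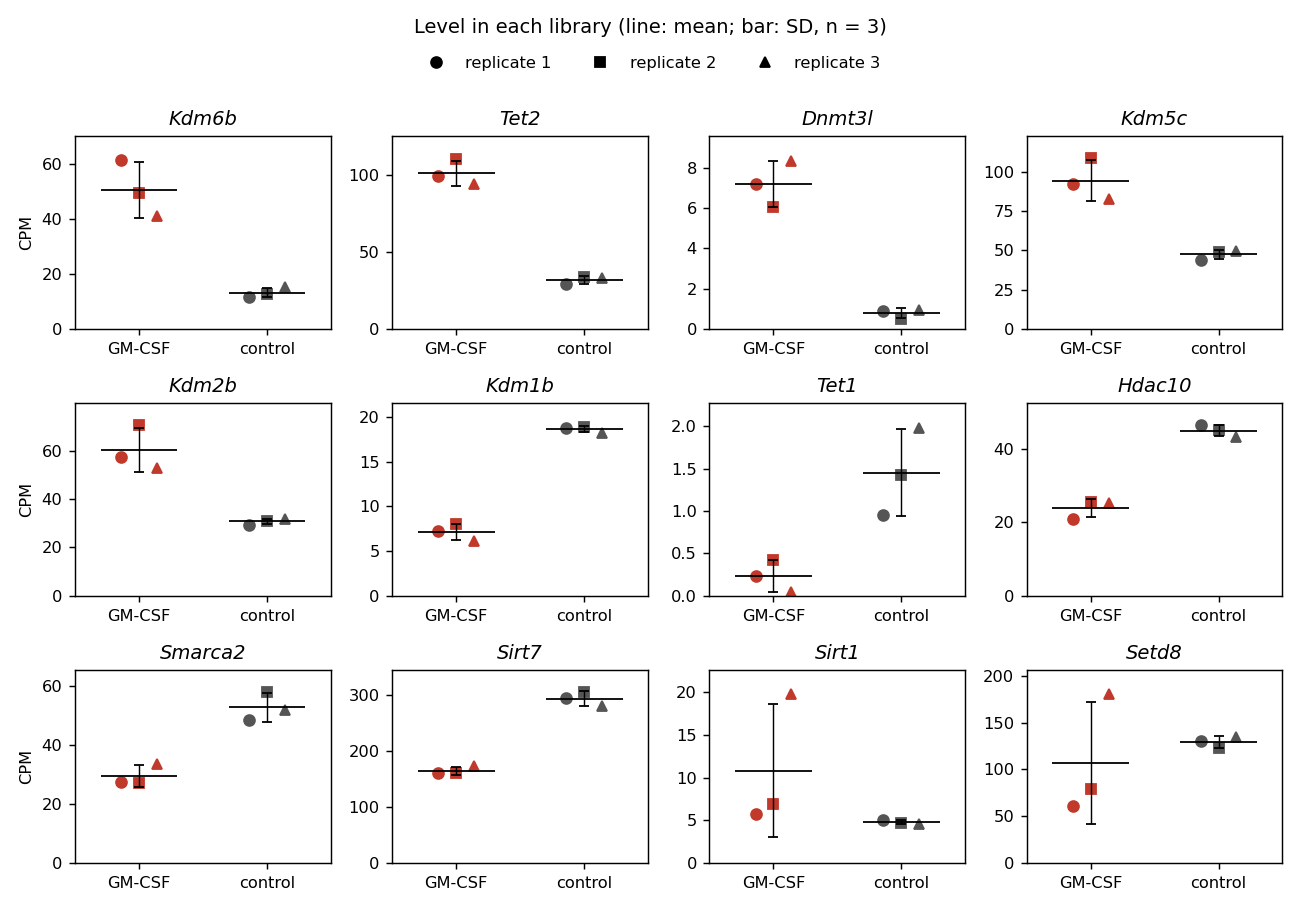
Level in CPM of 12 members in each library (points; circle, square and triangle for replicates 1, 2 and 3), with the mean (line) and SD (bar, n = 3), GM-CSF left of control; each panel has its own vertical axis from 0. Kdm6b, Tet2, Dnmt3l, Kdm5c and Kdm2b were higher in all 3 GM-CSF libraries. Kdm1b, Tet1, Hdac10, Smarca2 and Sirt7 were lower in all 3. Sirt1 was above the controls in all 3 as well, but far above them in GM-CSF replicate 3 alone (19.8 CPM). Setd8 was above the controls in GM-CSF replicate 3 (181 CPM) and below them in GM-CSF replicates 1 and 2.

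Lysine demethylases take methyl groups off histones. Of the 17 tested, 8 were higher, 3 were lower and 6 did not pass, with a median of 0.24, and the share called, 64.7%, was close to the background of 64.0%. With upper quartile scaling 6 were higher and 5 lower, and 5 were also lower with the corrections for gene length or GC content. Kdm6b, a demethylase of lysine 27 of histone H3 (ENSMUSG00000018476, chr11:69398508-69413675, minus strand, GRCm38), had 61.5, 49.5 and 41.2 CPM in GM-CSF replicates 1, 2 and 3, against 11.8, 12.7 and 15.3 CPM in the control libraries. It rose 3.84-fold, with no overlap (log2 fold change 1.94 ± 0.16, adjusted p = 1.30e-06; edgeR). Kdm6a, the X-linked enzyme for the same mark, had 37.6, 34.8 and 36.9 CPM in GM-CSF libraries and 23.4, 27.8 and 22.5 CPM in control libraries. Its rise was smaller but present in all 3 libraries (log2 fold change 0.57 ± 0.11, adjusted p = 0.000966; edgeR). Kdm5c, which removes methyl groups from lysine 4 of histone H3, rose nearly 2-fold: it had 92.1, 109 and 82.6 CPM in GM-CSF libraries, against 44.2, 48.8 and 49.4 CPM in control libraries (log2 fold change 0.999 ± 0.10, adjusted p = 8.03e-06; edgeR). Its relatives Kdm5a (0.02), Kdm5b (-0.38) and the Y-linked Kdm5d (-0.25) did not pass.

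Both lysine demethylases of the flavin-dependent kind passed, in opposite directions. Kdm1a, known as LSD1, had 55.5, 85.3 and 87.6 CPM in GM-CSF libraries, against 44.8, 51.4 and 39.9 CPM in control libraries (log2 fold change 0.75 ± 0.16, adjusted p = 0.00169; edgeR). All 3 GM-CSF values lay above all controls, with GM-CSF replicate 1 nearest to them. Kdm1b, known as LSD2, had 7.21, 8.05 and 6.20 CPM in GM-CSF libraries, against 18.8, 18.9 and 18.2 CPM in control libraries, and fell, with every GM-CSF library below every control library (log2 fold change -1.38 ± 0.14, adjusted p = 6.97e-06; edgeR). Kdm1b shares exon bases with Dek on the opposite strand. Since use of strand in counting is not given, how reads there were assigned is not known. The called members Kdm6b, Kmt2a, Dnmt3l and Sirt1 also share exon bases with a gene on the opposite strand. The lysine 9 demethylases split in the same way. Kdm3a was higher, at 56.3, 54.4 and 49.9 CPM in GM-CSF libraries and 36.3, 44.98 and 36.6 CPM in control libraries (log2 fold change 0.45). Kdm3b was lower, with 33.7, 35.9 and 30.3 CPM in GM-CSF libraries, against 58.5, 59.7 and 61.6 CPM in control libraries (log2 fold change -0.84 ± 0.09, adjusted p = 1.13e-05; edgeR), and it overlaps an annotated non-coding gene on the opposite strand. Kdm4a, which acts on lysines 9 and 36, fell as well (-0.84), while Kdm4b (0.24) and Kdm4c (-0.12) did not pass.

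The lysine 36 demethylases with a CXXC domain, Kdm2a and Kdm2b, were both higher. Kdm2b, which also recruits a Polycomb complex to CpG islands, averaged 60.3 ± 9.11 CPM in GM-CSF libraries and 30.7 ± 1.12 CPM in control libraries (SD, n = 3 each; log2 fold change 0.98 ± 0.11, adjusted p = 1.57e-05; edgeR), and part of its exons overlap Rnf34 on the opposite strand. Kdm2a was barely past the threshold (log2 fold change 0.33 ± 0.11, adjusted p = 0.0203; edgeR), and it missed it without GM-CSF replicate 2 (0.22), control replicate 1 (0.30) or control replicate 2 (0.34). It also missed it with upper quartile scaling (0.21) or a correction for gene length (0.22). Kdm8, a member of the same JmjC superfamily, stood close to the threshold too (log2 fold change 0.35 ± 0.12, adjusted p = 0.0245; edgeR). It missed it without GM-CSF replicate 1 or any 1 of the control libraries (0.31 to 0.36) and with upper quartile scaling (0.23). Kdm7a, a demethylase of lysines 9 and 27, had a log2 fold change of 0.10 and did not pass.

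Of 16 tested genes classed by symbol as lysine methyltransferases, 3 were higher, 3 were lower and 10 did not pass. Their median was 0.10, and 37.5% were called (background 64.0%). The symbol alone does not show that each encodes an active lysine methyltransferase. The Kmt2 genes are named for the large enzymes that methylate lysine 4 of histone H3, and 2 of the 5 passed, both higher. Kmt2d, the enzyme of enhancers, had 57.6, 69.3 and 94.2 CPM in GM-CSF libraries, against 39.8, 42.9 and 45.6 CPM in control libraries (log2 fold change 0.80 ± 0.15, adjusted p = 0.000792; edgeR). GM-CSF replicate 3 was the highest, and without it the log2 fold change was 0.58 (adjusted p = 0.000172; edgeR). Kmt2a, known as MLL1, had 18.1, 18.9 and 18.2 CPM in GM-CSF libraries, against 12.8, 13.6 and 11.9 CPM in control libraries (log2 fold change 0.53 ± 0.12, adjusted p = 0.00240; edgeR), with the 3 GM-CSF values close together. Kmt2b, Kmt2c and Kmt2e had log2 fold changes of 0.11, 0.22 and 0.09 and did not pass. Setd1a and Setd1b, which methylate the same lysine, had 0.22 and 0.20. Setd1a shares exon bases with another gene model, Gm49388, on its own strand, and among the settings tried it passed without GM-CSF replicate 3 alone (0.47, adjusted p = 0.0352; edgeR).

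Ezh1 and Ezh2 are the alternative catalytic subunits of Polycomb repressive complex 2, which methylates lysine 27. Ezh1 had 35.7, 40.1 and 44.1 CPM in GM-CSF libraries, against 55.8, 60.1 and 55.1 CPM in control libraries, and was lower in each of the 3 (log2 fold change -0.50 ± 0.10, adjusted p = 0.000904; edgeR). Ezh2 had 80.5, 78.2 and 72.7 CPM in GM-CSF libraries and 70.9, 71.3 and 69.1 CPM in control libraries. The Ezh2 groups did not overlap, but the difference was small and did not pass (log2 fold change 0.14 ± 0.08, adjusted p = 0.147; edgeR). Of the SET-domain genes, Setd5 was higher, with 74.6, 77.3 and 72.3 CPM in GM-CSF libraries, against 48.3, 52.7 and 50.6 CPM in control libraries (log2 fold change 0.57 ± 0.08, adjusted p = 7.13e-05; edgeR). Setd6, known to methylate the NF-kappaB subunit RelA, was lower, with 12.9, 11.96 and 16.5 CPM in GM-CSF libraries, against 20.1, 22.2 and 21.6 CPM in control libraries (log2 fold change -0.61 ± 0.14, adjusted p = 0.00287; edgeR). Setd2, the enzyme that completes methylation of lysine 36, had 21.8, 25.7 and 24.6 CPM in GM-CSF libraries, against 29.6, 29.05 and 32.4 CPM in control libraries (log2 fold change -0.33 ± 0.10, adjusted p = 0.0174; edgeR). It passed narrowly and missed the threshold without GM-CSF replicate 1 (-0.27) or control replicate 3 (-0.29).

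Setd8, now named Kmt5a, encodes the enzyme that adds a single methyl group to lysine 20 of histone H4, a mark tied to the cell cycle. It had 60.6, 79.1 and 181 CPM in GM-CSF replicates 1, 2 and 3, against 130.2, 123 and 135 CPM in the control libraries. GM-CSF replicates 1 and 2 thus lay below every control and GM-CSF replicate 3 above every control. Over all 6 libraries Setd8 did not pass (log2 fold change -0.26 ± 0.30, adjusted p = 0.469; edgeR), and without GM-CSF replicate 3 it was lower (log2 fold change -0.88, adjusted p = 9.36e-06; edgeR). Setd3 (0.03), Setd4 (-0.28) and Setd7 (-0.56), which methylates lysine 4 and other proteins, did not pass.

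Of the 10 histone deacetylases tested, 2 were higher and 4 lower (background 32.8% and 31.2%), and with upper quartile scaling 1 was higher. Those higher were 2 of the 4 class I genes, and those lower were 3 of the 4 class IIa genes and 1 of the 2 class IIb genes. The difference between subclasses was not tested. Most class I enzymes are nuclear catalytic subunits of co-repressor complexes. Hdac2 had 135, 136 and 128 CPM in GM-CSF libraries, against 98.5, 97.7 and 99.5 CPM in control libraries (log2 fold change 0.44 ± 0.07, adjusted p = 0.000187; edgeR). Hdac1, its close relative, had 90.8, 99.1 and 97.4 CPM in GM-CSF libraries, against 79.7, 75.1 and 80.5 CPM in control libraries (log2 fold change 0.29 ± 0.07, adjusted p = 0.00494; edgeR). Neither pair of groups overlapped, but the call for Hdac1 was lost with upper quartile scaling (0.18). Hdac3, the enzyme of the NCoR and SMRT complexes, had 104, 103 and 79.4 CPM in GM-CSF libraries and 89.6, 96.7 and 105 CPM in control libraries. These ranges overlapped widely and the estimate was near 0 (log2 fold change -0.02 ± 0.11, adjusted p = 0.896; edgeR). Hdac8 (-0.19) did not pass.

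Class IIa enzymes shuttle between cytoplasm and nucleus and bind MEF2 factors. Hdac5, the most abundant of them per kb of exon, averaged 89.9 ± 9.57 CPM in GM-CSF libraries and 149 ± 14.8 CPM in control libraries (SD, n = 3 each; log2 fold change -0.73 ± 0.10, adjusted p = 6.65e-05; edgeR). Hdac7 had 12.6, 14.6 and 12.7 CPM in GM-CSF libraries, against 17.4, 21.9 and 20.5 CPM in control libraries (log2 fold change -0.58 ± 0.13, adjusted p = 0.00241; edgeR). Hdac9 had 5.78, 5.83 and 3.82 CPM in GM-CSF libraries, against 6.29, 10.5 and 9.29 CPM in control libraries (log2 fold change -0.76 ± 0.23, adjusted p = 0.0149; edgeR). The Hdac9 groups were close, and without control replicate 2 it missed the threshold (-0.60, adjusted p = 0.0753; edgeR). Hdac4 (0.21), the fourth of the subclass, did not pass. In class IIb, Hdac10, known as a polyamine deacetylase, had 21.04, 25.5 and 25.2 CPM in GM-CSF libraries, against 46.3, 45.1 and 43.3 CPM in control libraries, the largest fall among the deacetylases tested (log2 fold change -0.90 ± 0.10, adjusted p = 1.95e-05; edgeR). Hdac6, the tubulin deacetylase, had -0.07 and did not pass. Hdac11, the class IV enzyme, had too few reads for the test: 0 reads over the GM-CSF libraries and 16 over the controls, at least 4.18-fold lower when 3 reads over the GM-CSF group are set as the most that no reads would allow.

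Sirtuins, the NAD-dependent deacylases, had 1 higher and 2 lower genes among 7 (42.9% called; background 64.0%), with a median of -0.32. Sirt7, the nucleolar sirtuin, had 159.8, 161 and 172 CPM in GM-CSF libraries, against 295, 306 and 279.5 CPM in control libraries. The groups lay far apart and Sirt7 fell (log2 fold change -0.83 ± 0.07, adjusted p = 2.30e-06; edgeR), though some of its exon bases are shared with Mafg on the same strand. Sirt1, which acts on histones and transcription factors, was called higher (log2 fold change 1.21 ± 0.39, adjusted p = 0.0192; edgeR), but the size of that call came from 1 library. It had 5.78, 6.91 and 19.8 CPM in GM-CSF replicates 1, 2 and 3, against 5.04, 4.64 and 4.62 CPM in the control libraries. Without GM-CSF replicate 3 the log2 fold change was 0.42 and the adjusted p 0.0635 (edgeR). Sirt1 also missed the threshold without control replicate 2 (1.18) or control replicate 3 (1.17). Sirt4, a mitochondrial sirtuin, had 2.15, 2.82 and 1.49 CPM in GM-CSF libraries, against 3.33, 3.17 and 4.86 CPM in control libraries (log2 fold change -0.81 ± 0.30, adjusted p = 0.0323; edgeR). That call was lost without GM-CSF replicate 1 (-0.83), GM-CSF replicate 3 (-0.59), control replicate 1 (-0.89) or control replicate 3 (-0.61), and also with the replicate number as a block (-0.82, adjusted p = 0.0565; edgeR). Sirt2 (-0.09), Sirt3 (-0.25), Sirt5 (-0.51) and Sirt6 (-0.32) did not pass. Among the settings tried, Sirt5 passed without GM-CSF replicate 3 alone (-0.92, adjusted p = 0.0405; edgeR).

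**Figure D3:**
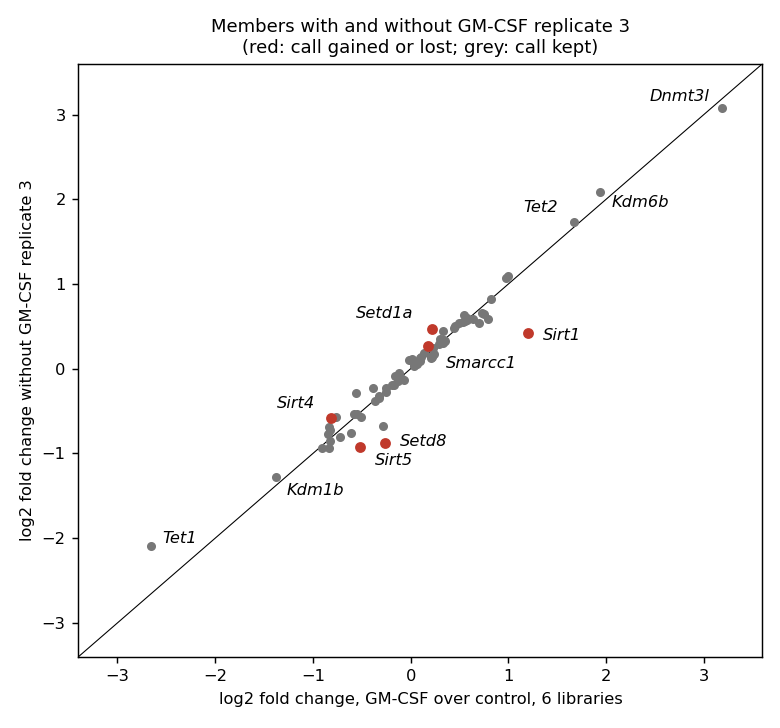
Log2 fold change, GM-CSF over control, from all 6 libraries (horizontal axis) and without GM-CSF replicate 3 (vertical axis) for the members tested in both; points on the line did not move, and red points gained or lost their call. Sirt1 (1.21 and 0.42) and Setd8 (-0.26 and -0.88) lie farthest from the line among the members in red.

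The BRD proteins read acetylated lysines through bromodomains. Brd2 and Brd3 belong to the BET family, which links acetylated chromatin to transcription. Of the 7 tested, 2 were higher and 1 was lower (42.9% called; background 64.0%), with a median of 0.07. Brd2, the most abundant of the class per kb of exon with 34.1 CPM per kb in GM-CSF libraries and 27.7 CPM per kb in control libraries, had 260.0, 287 and 253 CPM in GM-CSF libraries, against 207, 218 and 227 CPM in control libraries (log2 fold change 0.30 ± 0.07, adjusted p = 0.00315; edgeR). Some of its exon bases are shared with H2-DMa and with an antisense gene, both on the opposite strand. How reads there were assigned is not given, so its level and call may be affected. Brd3 had -0.12 and did not pass. Brd8, a subunit of the NuA4 acetyltransferase complex, was lower, with 96.1, 99.6 and 103 CPM in GM-CSF libraries, against 118, 135 and 133 CPM in control libraries (log2 fold change -0.36 ± 0.08, adjusted p = 0.00160; edgeR). Brd1 (0.23), Brd7 (0.07) and Brd9 (-0.16) did not pass.

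SMARC genes encode the motors and core subunits of SWI/SNF, the ISWI motor SMARCA5 and related helicases. Of the 12 rows tested, 5 were higher, 3 were lower and 4 did not pass (66.7% called; background 64.0%), with a median of 0.27. All 5 Smarca-named ATPase genes tested passed, and the 2 alternative SWI/SNF motors moved in opposite directions. Smarca4, known as BRG1, had 161, 177 and 179.6 CPM in GM-CSF libraries, against 129.5, 139 and 146 CPM in control libraries (log2 fold change 0.33 ± 0.07, adjusted p = 0.00231; edgeR). Smarca2, known as BRM, had 27.5, 27.2 and 33.6 CPM in GM-CSF libraries, against 48.4, 57.98 and 51.9 CPM in control libraries (log2 fold change -0.83 ± 0.11, adjusted p = 7.08e-05; edgeR). Neither gene's groups overlapped. Smarca5 had 117, 172 and 144 CPM in GM-CSF libraries, against 99.3, 100.2 and 94.9 CPM in control libraries (log2 fold change 0.56 ± 0.12, adjusted p = 0.00148; edgeR). GM-CSF replicate 1 was nearest to the controls for Smarca5, and its pseudogene copy Smarca5-ps, which can share reads with it, did not pass (0.64).

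Smarcad1, a remodeller that acts at replication forks and DNA breaks, had 27.3, 29.4 and 23.7 CPM in GM-CSF libraries, against 17.9, 18.98 and 18.4 CPM in control libraries (log2 fold change 0.55 ± 0.11, adjusted p = 0.00160; edgeR). Smarcal1, an annealing helicase of stalled forks, was lower, with 18.2, 23.97 and 17.3 CPM in GM-CSF libraries, against 33.6, 36.98 and 34.9 CPM in control libraries (log2 fold change -0.82 ± 0.13, adjusted p = 0.000203; edgeR). Among the non-catalytic subunits, Smarce1 (0.50) and Smarcc2 (0.34) rose and Smarcd2 (-0.55) fell. Smarcd2, the subunit known for its role in granulocyte development, had the highest level per kb of exon of all 81 members in both groups, with 50.8 CPM per kb in GM-CSF libraries and 74.6 CPM per kb in control libraries. Smarcb1 (0.04), Smarcc1 (0.18) and Smarcd1 (0.20) did not pass, and Smarcc1 passed without GM-CSF replicate 3 (0.27, adjusted p = 0.0173; edgeR). The other rows without a test were Smarcd3, with 16 reads over the GM-CSF libraries and 25 over the controls, Smarca1, with 0 in both, Kdm4d, with 8 over GM-CSF and 5 over control libraries, and Dnmt3aos, with 0 over GM-CSF and 1 over control libraries.

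For 7 pairs of related members the ratio of their read counts was taken within each library, which removes the scaling between libraries. The pairs were set with these results of the single genes already known, so the ratios restate the changes above in another form. Kdm6b over Kdm6a had a log2 ratio of 0.46 ± 0.28 in GM-CSF libraries and -0.89 ± 0.30 in control libraries (SD, n = 3 each), so per kb of exon the inducible enzyme was the higher of the 2 in every GM-CSF library and the lower in every control library. Tet2 over Tet3 behaved likewise, with 0.71 ± 0.22 in GM-CSF libraries and -0.23 ± 0.19 in control libraries (SD, n = 3 each). Ezh2 over Ezh1 had 0.95 ± 0.23 in GM-CSF libraries and 0.31 ± 0.05 in control libraries (SD, n = 3 each), and Smarca2 over Smarca4 had -2.56 ± 0.14 in GM-CSF libraries and -1.39 ± 0.12 in control libraries (SD, n = 3 each). Smaller differences were found for Dnmt3a over Dnmt1 (0.24) and Hdac2 over Hdac1 (0.15). None of the 7 pairs overlapped between groups. Each reached p = 0.1 in an exact two-sided permutation test, raw and adjusted over the 7 pairs, the smallest p that 3 against 3 libraries allow, so a p under 0.05 could not be reached.

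**Figure D4:**
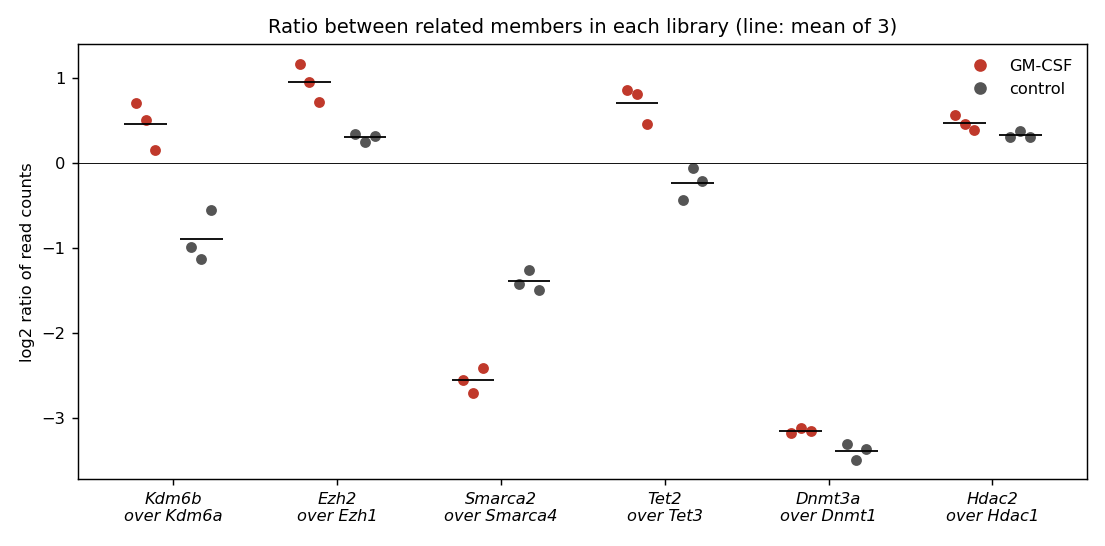
Log2 ratio of the read counts of 2 related members within each library (points), GM-CSF left of control in each pair, with the mean of 3 libraries (line). The groups lie apart in all 6 pairs shown, widest for Kdm6b over Kdm6a (difference 1.35) and Smarca2 over Smarca4 (difference -1.17).

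Many members work in complexes, and genes for their partners were listed by complex. The counts below stand beside a background of 32.8% higher and 31.2% lower among all genes tested. Of 26 Polycomb partners tested, 14 were higher and 7 lower, from -3.16 to 1.28 with a median of 0.35. Eed (0.31) and Suz12 (0.48), the core partners of EZH1 and EZH2, rose, as did Bmi1 (1.21) and Rnf2 (0.64) of the ubiquitin ligase complex. For Suz12, GM-CSF replicate 3 (37.82 CPM) lay barely above the highest control library (37.81 CPM). Pcgf1 (-1.26) and Phf1 (-1.01) of the same list fell. All of these genes were named outside the naming rule, with their values known. Phc2, a Polyhomeotic subunit, had 59.2, 99.4 and 160.0 CPM in GM-CSF libraries, against 38.2, 54.3 and 39.6 CPM in control libraries (log2 fold change 1.28 ± 0.28, adjusted p = 0.00217; edgeR), with GM-CSF replicate 1 close to control replicate 2. Several CBX subunits, which read methylated lysine 27, moved the other way. Cbx8 had 1.61, 2.40 and 2.84 CPM in GM-CSF libraries, against 18.5, 22.2 and 21.8 CPM in control libraries (log2 fold change -3.16 ± 0.19, adjusted p = 1.54e-07; edgeR). Cbx7 (-2.18), Cbx2 (-1.98) and Cbx6 (-1.59), named after their values were seen, fell too.

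Partners of the Kmt2 and Setd1 enzymes in COMPASS complexes had 7 of 11 genes higher and 1 lower, with a median of 0.24. Wdr5, their shared core subunit, had 145, 139 and 154 CPM in GM-CSF libraries, against 87.02, 88.5 and 92.9 CPM in control libraries (log2 fold change 0.71 ± 0.07, adjusted p = 8.16e-06; edgeR). Pagr1a, a partner of KMT2C and KMT2D, fell (log2 fold change -0.36 ± 0.09, adjusted p = 0.00394; edgeR). The count of higher genes in this list was 2 with upper quartile scaling and 3 with a correction for gene length, and leaving out control replicate 2 gave 4 and control replicate 3 gave 3. Of 23 methyltransferases outside the rule, 14 were higher (60.9%; background 32.8%) and 6 lower (26.1%; background 31.2%), with a median of 0.42. Smyd5 had 71.7, 66.5 and 72.99 CPM in GM-CSF libraries, against 17.7, 19.7 and 20.7 CPM in control libraries (log2 fold change 1.87 ± 0.10, adjusted p = 3.83e-08; edgeR). Prmt5, the main symmetric arginine methyltransferase, was named after its values were seen, with 94.2, 91.3 and 91.8 CPM in GM-CSF libraries, against 31.7, 30.5 and 35.3 CPM in control libraries (log2 fold change 1.52 ± 0.08, adjusted p = 7.06e-08; edgeR). Setmar was the lowest of the list (log2 fold change -0.93 ± 0.25, adjusted p = 0.00734; edgeR).

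**Figure D5:**
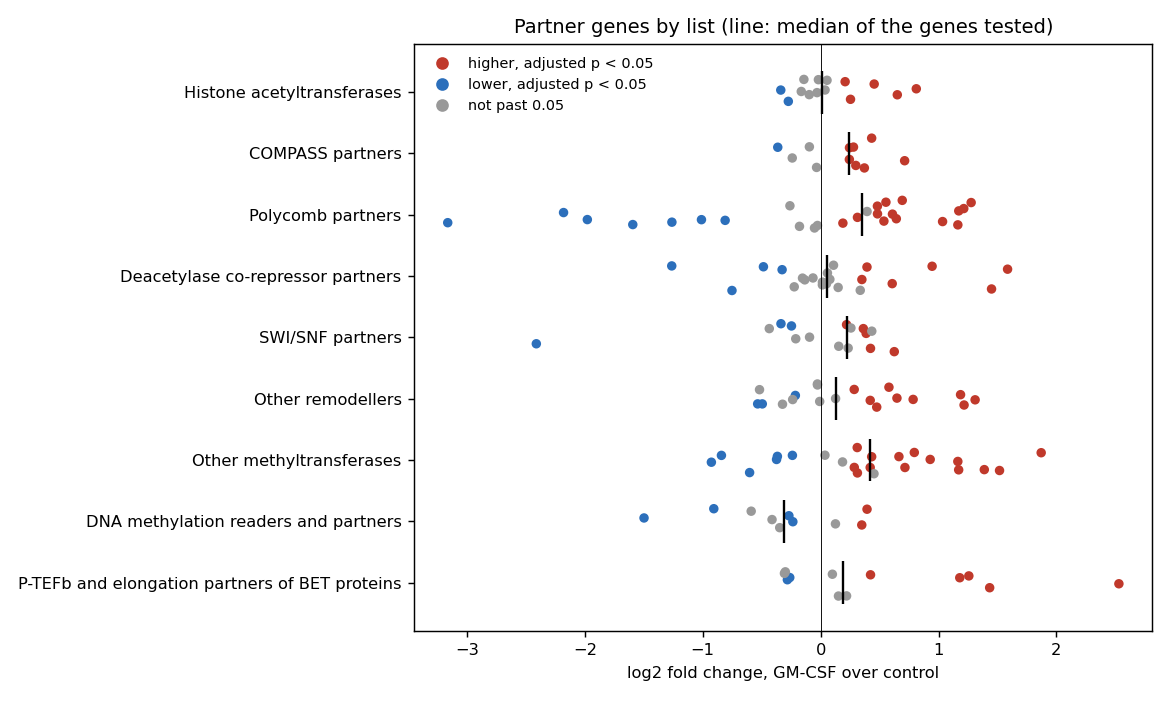
Log2 fold change, GM-CSF over control, of the tested genes in 9 lists of partner genes (points, spread vertically within a list so that they can be seen), with the median of each list (line); red genes were higher and blue genes lower at an adjusted p under 0.05, and grey genes did not pass. Cbx8 lies at the left at -3.16, and Ell2 lies farthest to the right at 2.53.

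Histone acetyltransferases, which oppose the deacetylases, had 5 of 14 genes higher and 2 lower, with a median of 0.01. Naa40, which acetylates the tips of histones H4 and H2A, averaged 132 ± 2.78 CPM in GM-CSF libraries and 75.8 ± 8.52 CPM in control libraries (SD, n = 3 each; log2 fold change 0.81 ± 0.09, adjusted p = 9.66e-06; edgeR). Crebbp (0.45) and Ncoa3 (0.65), both named after their values were seen, also rose, while Ep300 (-0.14) did not pass. Kat6a was called lower narrowly (log2 fold change -0.34 ± 0.14, adjusted p = 0.0488; edgeR) and missed the threshold when any 1 of the libraries other than GM-CSF replicate 2 was left out, with -0.18 without GM-CSF replicate 3. Among deacetylase co-repressor partners 6 of 22 were higher and 4 lower, with a median of 0.05. Rcor1, the CoREST scaffold that holds KDM1A and HDAC1 or HDAC2, had 22.8, 29.2 and 74.7 CPM in GM-CSF libraries, against 13.04, 14.03 and 15.6 CPM in control libraries (log2 fold change 1.59 ± 0.36, adjusted p = 0.00246; edgeR). The GM-CSF replicate 3 value was far above the other GM-CSF values, and without it the log2 fold change was 0.88. Mbd2, a reader of methylated DNA named after its values were seen, showed the same pattern, with 1.45 over all libraries and 0.72 without GM-CSF replicate 3. Sap30, a subunit of the SIN3 complex, had 64.4, 54.7 and 56.2 CPM in GM-CSF libraries, against 158, 134 and 131 CPM in control libraries, and fell (log2 fold change -1.26 ± 0.10, adjusted p = 1.51e-06; edgeR).

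Genes of the elongation machinery that BET proteins are known to recruit had 5 of 12 members higher and 2 lower, with a median of 0.19. Ell2, a subunit of the super elongation complex, had 46.4, 37.2 and 32.00 CPM in GM-CSF libraries, against 6.67, 7.53 and 5.82 CPM in control libraries (log2 fold change 2.53 ± 0.17, adjusted p = 2.69e-07; edgeR). Ccnt1, the cyclin of P-TEFb, was named after its values were seen and averaged 79.1 ± 5.44 CPM in GM-CSF libraries and 29.4 ± 0.441 CPM in control libraries (SD, n = 3 each; log2 fold change 1.43 ± 0.09, adjusted p = 1.23e-07; edgeR). Cdk9, its kinase, was slightly lower (log2 fold change -0.28 ± 0.07, adjusted p = 0.00544; edgeR). SWI/SNF partners had 5 of 15 genes higher and 3 lower, with a median of 0.22. Bcl11a, a DNA-binding SWI/SNF subunit of lymphoid and dendritic cell lineages, had 3.75, 4.39 and 2.56 CPM in GM-CSF libraries, against 19.2, 18.9 and 18.7 CPM in control libraries (log2 fold change -2.41 ± 0.19, adjusted p = 8.70e-07; edgeR). In the same libraries 3 of 7 tested B cell markers were lower and 0 higher, whereas 2 of 6 dendritic cell markers were lower and 2 higher. Ss18 was the highest of that list (log2 fold change 0.62 ± 0.07, adjusted p = 2.45e-05; edgeR). Other remodellers had 9 of 19 genes higher and 3 lower, with a median of 0.13, from Ercc6, the remodeller of transcription-coupled repair (log2 fold change 1.31 ± 0.13, adjusted p = 5.45e-06; edgeR), to Chd1l (log2 fold change -0.53 ± 0.12, adjusted p = 0.00193; edgeR). DNA methylation readers and partners had 2 of 10 higher and 4 lower, with a median of -0.31, and Zbtb38, which binds methylated DNA, fell most (log2 fold change -1.50 ± 0.14, adjusted p = 3.78e-06; edgeR), while Mbd1 rose (log2 fold change 0.39 ± 0.09, adjusted p = 0.00248; edgeR).

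Of the 81 members, 66 had a promoter in the RefSeq table, with 91 windows of 300 bases, each set as for Tet2 and Dnmt3l. The motif TTCNNNGAA, which reads the same on both strands, was found for 8 of the 66 (12.1%), against 9.55% of all 27025 genes in the table. It was found for 5 of 20 members that rose, 2 of 14 that fell and 1 of 27 that did not pass. Among them, besides Dnmt3l, were Brd2, Smarcad1 and Kmt2d, which rose, Hdac7 and Sirt7, which fell, and Setd7. The matches of these 6 are printed with 10 bases on each side, since they show that the bases within and around the motif differ between members; capitals mark the motif, and Hdac7 has a match at each of 2 starts.
Brd2 (chr17:34120027-34120055, minus strand): attactttggTTCGGGGAAgacgaggtta
Smarcad1 (chr6:65043200-65043228, plus strand): ctgcagctagTTCATTGAAagctgtcagc
Kmt2d (chr15:98871244-98871272, minus strand): cctggggctgTTCATGGAAacctaaactg
Hdac7 (chr15:97831890-97831918, minus strand): acaggagtccTTCCCCGAAgcgtaaagca
Hdac7 (chr15:97815067-97815095, minus strand): ttccccgacgTTCCCTGAAtgcttctcca
Sirt7 (chr11:120625087-120625115, minus strand): ctggtggtatTTCTTTGAAatcccgaagg
Setd7 (chr3:51560919-51560947, minus strand): ggatcctcacTTCTGGGAAaggacaggga
The match in Smarcad1 lies after the transcript start and the other printed matches before it. Searched on both strands, the EGR motif GCGGGGGCG was found for 5 of the 66 members (7.58%; all genes 3.31%), of which 4 rose. The NF-kappaB-like motif, GGGA and CC with any 4 bases between them, was found for 24 (36.4%; all genes 22.9%), and the AP-1-like motif TGANTCA for 8 (12.1%; all genes 8.97%). A match is a description of these letters, and members with several starts had more windows in which one could occur. Members without a promoter sequence at hand included Brd8, Hdac1, Hdac3, Hdac10, Kdm2a, Kdm3b, Kdm4b, Kdm5a, Kdm6b, Kmt2b, Kmt2e, Setd1b, Smarca5-ps and Smarce1.

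The members were longer than most genes, with a median of 7.03 kb of exon over the 76 tested, against 4.39 kb over all genes tested, and their median level was 42.5 CPM, against 29.2 CPM. Across the 76 tested members the log2 fold change varied little with exon length (Pearson r = 0.01 and Spearman rho = 0.11, as a description over genes that share the same 6 libraries). The calls still moved: a correction for gene length gave 24 members higher and 23 lower, so that 51.1% of the called members were higher. A correction for GC content gave 26 and 20. These corrections moved the median log2 fold change of all genes by -0.03 (length) and -0.04 (GC). Of the 42 called members, 35 kept their call and direction under every alternative setting that tested them. The 7 that lost it under at least 1 were Hdac1, Hdac9, Kdm2a, Kdm8, Setd2, Sirt1 and Sirt4.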

How the data were processed

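Raw read counts per gene symbol for 6 polyadenylated RNA libraries (paired reads) were deposited by the authors in 1 table, with columns named by sample title. STAR 2.5.2a, HTSeq 0.6.1p1, Trim Galore 0.4.4 and edgeR are the tools, and mm10 the build, per the submitters' processing notes. Not given in the sources used here are the gene annotation and whether strand was used. Entries that name no gene (28.8% to 30.6% of counted reads) stayed out of library sizes and tests.

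Tests used edgeR 4.0.16 in R 4.3.3: TMM, filterByExpr (minimum count 10, minimum total 15; 11731 genes kept, 12690 removed), a two-sided quasi-likelihood F test with group as the only term, and Benjamini-Hochberg adjustment over all genes tested, threshold 0.05. The SE is the absolute log2 fold change over the square root of F. The common biological coefficient of variation was 0.119. Exon length and coordinates came from GENCODE M21 on GRCm38, and promoters from RefSeq. In simulated data with 200 of 11586 tested genes changed 2-fold, the procedure called 194 in the right direction and also called 11 unchanged genes. The simulation held far fewer changed genes than the 64.0% called here and no library that stood apart. It therefore cannot tell how the procedure behaves under these 2 conditions.

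Values in each library were given for the 2 highest and 2 lowest called members of each class whose mean log2 CPM was 1 or more, other called members with an absolute log2 fold change of at least 1.5, and 21 genes fixed by name, and for the highest and lowest called gene of each partner list. A few items chosen this way are not reported here. Members, gene lists and classes were chosen with earlier results of these data known. Alternatives were other scalings, no filter or a filter of 1 CPM in 3 libraries, limma-voom (limma 3.58.1), DESeq2 1.42.0, a replicate block, corrections for GC content and length, and each library left out in turn.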

Additional observations from a re-analysis of the deposited data

How the results depend on the processing

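With upper quartile scaling, which moved the median log2 fold change of all genes by -0.12, 26 members were lower (BRD proteins 3, DNA methylation enzymes 2, lysine demethylases 5, sirtuins 5) and 1 histone deacetylase was higher. In the partner lists it gave 3 histone acetyltransferases, 2 COMPASS partners and 1 DNA methylation reader higher, and 2 COMPASS partners and 5 other remodellers lower. A correction for gene length gave 2 BRD proteins, 2 DNA methylation enzymes, 5 demethylases and 5 other remodellers lower and 3 COMPASS partners higher. A correction for GC content gave 5 demethylases, 1 histone acetyltransferase, 2 COMPASS partners and 5 other remodellers lower. With a filter of 1 CPM in 3 libraries, Tet1 was not tested, so that 0 DNA methylation enzymes were lower, and 2 COMPASS partners were lower. Without a filter 3 histone acetyltransferases were higher, and with total counts alone 2 COMPASS partners were lower. Except for the filter that removed Tet1, the cause was not tested.

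Whether replicate numbers pair the libraries is not stated. Deviations from the group means correlated at 0.0731, 0.00962 and 0.00384 for numbers 1, 2 and 3. For unlike numbers the correlations ran from -0.0467 to 0.0304. With 3 libraries a group, these values cannot decide whether the libraries were paired. With the replicate number as a block, 25 members were higher and 18 lower, with 2 DNA methylation enzymes, 1 sirtuin (the call for Sirt4 was lost) and 2 COMPASS partners lower.

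With each library left out in turn, 23 to 27 members were higher and 15 to 18 lower. Counts ran from 0 to 1 for sirtuins higher, 1 to 2 for sirtuins lower, 3 to 5 for acetyltransferases higher, 0 to 2 for acetyltransferases lower, 3 to 7 for COMPASS partners higher, 1 to 2 for COMPASS partners lower, 1 to 2 for DNA methylation readers higher, 2 to 4 for these readers lower and 1 to 2 for elongation partners lower.

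No called member changed sign in any alternative. Among members that did not pass, upper quartile scaling turned Brd7 (-0.0513), Dnmt3a (-0.0513), Kdm5a (-0.10), Kdm7a (-0.0192), Kmt2b (-0.00737), Kmt2e (-0.024), Setd3 (-0.0861) and Smarcb1 (-0.0797) negative. The GC correction did so for Brd7 (-0.0063), Kdm5a (-0.13), Kdm7a (-0.0496), Kmt2e (-0.00443) and Setd3 (-0.0628), and the length correction for Brd7 (-0.00506), Dnmt3a (-0.0474), Kdm5a (-0.0906), Setd3 (-0.038) and Smarcb1 (-0.0379). With 1 library left out, the sign turned for Hdac3 (-0.0921 to 0.11), Hdac6 (-0.22 to 0.0321), Kdm5a (-0.0843 to 0.11), Setd3 (-0.0446 to 0.0932), Setd4 (-0.68 to 0.00801) and Setd8 (-0.88 to 0.0132). With 3 libraries a group, depth limits low members: 3 reads in a library equal up to 0.180 CPM, so Tet1, Hdac11 and the other rows near 0 carry little weight.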
